A study of Mus musculus with 12 samples.

Results

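The genes examined here were 10 genes of inflammatory cytokine signalling and of the inflammasome in mouse epididymal white adipose tissue (eWAT). They were chosen by symbol, as Tnf, Tnfrsf1b, Il1b, Il1rn, Il18, Nlrp3, Casp1, Il6, Il10 and Tgfb1, and all 10 of 10 were found by their mouse Ensembl identifiers among the 23474 genes of the expression table. RNA-seq was run on 12 libraries, each from the eWAT of a single male C57BL/6J mouse, with 3 libraries in each of 4 groups. The mice were 5 weeks old at the start, were kept on their diet for 12 weeks and were 17 weeks old at sampling, in groups of 10 mice. The ND group received a normal diet and the HFD group a high-fat diet. The GT group received the same high-fat diet with 0.25% (w/w) green tea extract, made with ethanol, and the TJ group received it with 3% (w/w) Taeeumjowuitang (TJ), an herbal medicine made from several plants. The mice carried no engineered allele according to the labels, and no group received an additive without the high-fat diet. Expression was given as FPKM, the number of sequenced fragments scaled to transcript length and to the depth of the library, so levels of different genes can be set side by side.

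Expanding fat depots recruit macrophages, which gather around dying adipocytes and are a main source of cytokines in obese adipose tissue. Tumour necrosis factor signals through the broadly expressed receptor Tnfrsf1a and the more restricted, inducible receptor Tnfrsf1b. In the inflammasome, the sensor Nlrp3 and the adaptor Pycard bring caspase-1 to activity, and caspase-1 cleaves the precursors of the cytokines Il1b and Il18 as well as the pore-forming protein Gsdmd. Il1rn is a secreted antagonist that occupies the IL-1 receptor without starting a signal, Il10 restrains macrophage activity, and Tgfb1 acts on the matrix and on immune cells. Caspase-1 and the IL-1 family cytokines are controlled by cleavage, so transcript levels say nothing about how much active protein was present.

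In GRCm38 the genes lie apart from each other, at chr17:35199381-35202007 for Tnf, chr4:145213463-145246870 for Tnfrsf1b, chr9:5298517-5307265 for Casp1 and chr11:59541568-59566956 for Nlrp3. Il1b (chr2:129364570-129371139) and Il1rn (chr2:24336853-24351494) share a chromosome at a distance. The remaining genes are Il18 at chr9:50554827-50581840, Il6 at chr5:30013114-30019981, Il10 at chr1:131019845-131024974 and Tgfb1 at chr7:25687002-25705077. All are protein coding and were measured over their whole transcripts. Il1b overlaps the antisense transcript Il1bos, and Il18 overlaps Bco2 and Tex12 on the opposite strand. The library kit does not mark strand, so reads from overlapping partners could not be told apart.

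Promoter sequences from RefSeq (GRCm38.p6), from 250 bases before to 50 bases after the start site, were found for 9 of the 10 genes, with 12 start sites in all. Those of Il1rn, Tgfb1, Tnfrsf1b and Casp1 are shown because these genes passed the test in a comparison below, and those of Il1b and Il18 because they encode the precursors that caspase-1 cleaves. Capitals mark matches, on either strand, to the letters of an NF-kB site (GGG and CC with any 5 bases between them), to TGANTCA of an AP-1 site and to GAGGAA of a PU.1 site. Sequences are written 5′ to 3′ on the strand of the gene.
Il1rn upstream start, chr2:24336610-24336909, plus strand: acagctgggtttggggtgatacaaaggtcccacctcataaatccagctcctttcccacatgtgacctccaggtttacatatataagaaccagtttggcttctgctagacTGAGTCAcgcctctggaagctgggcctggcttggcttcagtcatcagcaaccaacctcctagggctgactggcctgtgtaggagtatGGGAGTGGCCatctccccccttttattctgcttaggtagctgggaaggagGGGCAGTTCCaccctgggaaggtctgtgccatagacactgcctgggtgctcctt
Il1rn downstream start, chr2:24345041-24345340, plus strand: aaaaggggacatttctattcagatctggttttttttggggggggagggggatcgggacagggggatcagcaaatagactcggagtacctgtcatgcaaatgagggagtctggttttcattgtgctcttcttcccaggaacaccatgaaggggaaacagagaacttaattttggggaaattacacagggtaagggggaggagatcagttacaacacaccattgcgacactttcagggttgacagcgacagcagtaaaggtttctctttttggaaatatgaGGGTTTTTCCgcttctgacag
Tnfrsf1b, chr4:145246821-145247120, minus strand: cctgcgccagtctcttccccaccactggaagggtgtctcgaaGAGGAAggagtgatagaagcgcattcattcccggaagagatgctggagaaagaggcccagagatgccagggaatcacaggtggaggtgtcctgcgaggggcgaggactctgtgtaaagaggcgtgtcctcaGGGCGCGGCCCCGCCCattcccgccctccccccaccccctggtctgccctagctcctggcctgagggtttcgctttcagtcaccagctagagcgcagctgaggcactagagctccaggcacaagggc
Casp1, chr9:5298267-5298566, plus strand: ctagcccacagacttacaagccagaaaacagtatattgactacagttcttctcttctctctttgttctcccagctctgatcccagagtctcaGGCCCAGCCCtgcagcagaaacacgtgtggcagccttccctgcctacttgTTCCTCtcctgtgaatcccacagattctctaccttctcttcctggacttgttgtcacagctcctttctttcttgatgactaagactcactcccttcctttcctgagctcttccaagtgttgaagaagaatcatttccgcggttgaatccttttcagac
Tgfb1, chr7:25686752-25687051, plus strand: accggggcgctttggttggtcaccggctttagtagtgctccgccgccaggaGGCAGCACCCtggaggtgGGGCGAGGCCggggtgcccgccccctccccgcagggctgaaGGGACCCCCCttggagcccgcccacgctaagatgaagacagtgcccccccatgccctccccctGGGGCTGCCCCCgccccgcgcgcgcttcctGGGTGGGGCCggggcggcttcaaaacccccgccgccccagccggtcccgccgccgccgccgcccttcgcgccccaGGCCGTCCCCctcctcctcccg
Il1b, chr2:129371090-129371389, minus strand: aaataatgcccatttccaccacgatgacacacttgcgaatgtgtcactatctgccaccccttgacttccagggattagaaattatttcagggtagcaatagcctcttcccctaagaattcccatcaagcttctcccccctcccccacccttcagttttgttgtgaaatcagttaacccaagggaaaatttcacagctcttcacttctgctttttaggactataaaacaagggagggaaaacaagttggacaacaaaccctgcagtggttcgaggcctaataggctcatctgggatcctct
Il18, chr9:50554450-50554749, plus strand: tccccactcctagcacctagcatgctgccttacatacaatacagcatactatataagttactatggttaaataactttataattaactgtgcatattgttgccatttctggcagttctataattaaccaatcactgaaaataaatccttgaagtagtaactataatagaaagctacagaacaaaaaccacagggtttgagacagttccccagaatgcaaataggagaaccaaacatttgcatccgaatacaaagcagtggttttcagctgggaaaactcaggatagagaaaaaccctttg

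With the start site counted as base 1, the upstream Il1rn promoter holds the AP-1 letters from base -141 and the NF-kB letters from bases -54 and -4. The Tnfrsf1b promoter holds the PU.1 letters from base -208 and 3 overlapping NF-kB matches from bases -77, -76 and -71, the latter pair on the other strand. The Casp1 promoter holds an NF-kB match from base -158 and a PU.1 match from base -108, both on the opposite strand. The Tgfb1 promoter holds 11 NF-kB matches, counted on both strands and largely overlapping. The windows of Il1b and Il18 hold none of these letters. A further Il1rn window, chr2:24345121-24345420, overlaps the downstream one and is not shown; its only match, from base -51, is the same stretch as the match from base 30 of the downstream window. Among the 12 promoters, with that stretch counted in both windows, 10 held the NF-kB letters, 2 the AP-1 letters and 4 the PU.1 letters. Of 32851 mouse promoters of the same length, 50.8% held the NF-kB letters, 7.81% the AP-1 letters and 28.3% the PU.1 letters. These matches describe the sequences, and a missing match says only that the letters are absent from the window.

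The spacing of the smallest FPKM values corresponded to roughly 9.93M to 15.8M fragments (M for 1e6) per ND library, 14.1M to 18.4M per HFD library, 15.6M to 19.6M per GT library and 15.8M to 17.3M per TJ library. The table gives no counts, so errors are the spread between mice. ND replicate 1 stood apart: 7 testis germ cell markers summed to 96789.9 FPKM in it, against 150 and 2741 FPKM in the other ND libraries, and 8 epididymis markers summed to 16376 FPKM, against 5.75 and 44.3 FPKM. The 8 adipocyte markers, Adipoq among them, summed to 4099 FPKM in ND replicate 1 and to at least 19260 FPKM in each of the other 11 libraries. Smaller sums of germ cell markers were present in ND replicate 3 and HFD replicate 1, at 2741 and 1956 FPKM, and of epididymis markers in HFD replicate 2, at 1275 FPKM. The fitted comparisons of members with the ND group are therefore given with and without ND replicate 1, and for genes that were not tested the second value is a difference of means.

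Groups were compared with limma on log2(FPKM + 1), over all genes whose mean in the 6 libraries compared reached 1 FPKM. A gene was called where the adjusted p was under 0.05 and the fold change reached 1.5. Tnf, Tnfrsf1b, Il1rn, Il18, Casp1 and Tgfb1 were tested in every comparison, and Nlrp3, Il1b, Il6 and Il10 were under the filter in every comparison. Each p-value measures the spread between single mice.

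Tnf, the ligand, was expressed at low levels. It was listed at 0, 0.207 and 0.167 FPKM in ND replicates 1 to 3 and at 2.11, 1.91 and 2.19 FPKM in the HFD group. In the GT group it was 1.98, 1.53 and 0.941 FPKM, and in the TJ group 1.62, 0.543 and 1.49 FPKM. Every HFD library was above every ND and TJ library, whereas the HFD and GT groups overlapped. Tnf was not called in any comparison as reported: it differed by 1.45 on the log2 scale between HFD and ND (SE 0.31, limma adjusted p = 0.105) and by -0.51 between TJ and HFD (SE 0.26, adjusted p = 0.180), the latter being -0.27 without TJ replicate 2. Without ND replicate 1 the first difference was 1.37 and was called (limma adjusted p = 0.0195). Over 17 alternative fits of HFD against ND it ran from 1.37 to 4.84, and Tnf was called in 6 of them.

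Tnfrsf1b, the inducible TNF receptor, was far more abundant than its ligand. Its level was 1.83, 10.9 and 15.1 FPKM in the ND group and 65.8, 61.3 and 72.2 FPKM in the HFD group. It was 52.5, 49.8 and 26.8 FPKM in the GT group and 34.8, 11.002 and 34.3 FPKM in the TJ group. The HFD libraries lay above all others, and TJ replicate 2 was the lowest of the TJ group and within the range of the ND group. Tnfrsf1b was significantly lower under TJ than under the HFD alone, by -1.44 on the log2 scale (SE 0.41, 95% interval -2.42 to -0.47, limma adjusted p = 0.0492). TJ replicate 2 set much of the size, and with it left out the difference was -0.92 (SE 0.11, limma adjusted p = 0.0065). Tnfrsf1b was called lower in 9 of 18 alternative fits, and its adjusted p ranged from 0.0065 to 0.277. Between HFD and ND the difference was 3.05 (SE 0.68, limma adjusted p = 0.114), and 2.28 without ND replicate 1 (adjusted p = 0.00262).

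In eWAT, fewer cells that express a gene and less of its RNA per cell cannot be told apart, and this holds for each difference described here. The other TNF receptor, Tnfrsf1a, measured 105 ± 8.84 FPKM under HFD and 121 ± 11.8 FPKM under TJ (SD, n = 3 each). It differed between these groups by 0.20 on the log2 scale (SE 0.14, limma adjusted p = 0.291). The difference of log2(FPKM + 1) between Tnfrsf1b and Tnfrsf1a was -2.35 ± 0.19 in the ND group, -0.65 ± 0.10 under HFD and -2.30 ± 1.04 under TJ (SD, n = 3). The HFD libraries were all above the TJ and the ND libraries. With ND replicate 1 left out, the mean of the ND group was -2.41. The exact two-sided permutation test gave p = 0.1 for TJ against HFD and for HFD against ND, and a design of 3 against 3 libraries cannot give a smaller p.

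Il1b, the IL-1 receptor agonist, was near the limit of detection in every group. It was 0.971, 0.140 and 0.447 FPKM in the ND group, 0.429, 0.305 and 0.104 FPKM in the HFD group, 0.183, 0.278 and 0.185 FPKM in the GT group and 0.267, 0.0483 and 0.342 FPKM in the TJ group. All groups overlapped, the highest value was in ND replicate 1, and by the approximate depths these levels stood for 1.04 to 13.1 fragments. At this depth a small difference between groups was not detectable. Without the filter, the log2 difference was -0.22 for HFD against ND (limma adjusted p = 0.626) and -0.07 for TJ against HFD (limma adjusted p = 0.737). The first difference was -0.014 without ND replicate 1.

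Il1rn, the antagonist of the same receptor, showed the widest range of the 10 genes. It was listed at 0, 0.700 and 0.154 FPKM in the ND group and reached 56.9, 58.2 and 74.3 FPKM in the HFD group. The GT group was at 50.1, 33.1 and 15.02 FPKM and the TJ group at 29.2, 1.58 and 17.6 FPKM. Every HFD library exceeded every GT and TJ library, every TJ library exceeded every ND library, and the GT and TJ groups overlapped. Il1rn was significantly higher in the HFD group than in the ND group, by 5.67 on the log2 scale (SE 0.33, 95% interval 4.86 to 6.47, limma adjusted p = 0.0057). Without ND replicate 1 this difference was 5.51 (limma adjusted p = 0.00138), and with the replicate number as a block it was not called (limma adjusted p = 0.0594).

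In TJ against HFD, Il1rn differed by -2.49 on the log2 scale (SE 0.83, 95% interval -4.46 to -0.53) and missed the threshold (limma adjusted p = 0.0695). TJ replicate 2 decided the size and the spread of that value. Without it the difference was -1.43 (SE 0.23) and Il1rn was called lower (limma adjusted p = 0.012). Relative to Il1b, the log2 level of Il1rn was -0.24 ± 0.78 in the ND group, 5.65 ± 0.40 under HFD and 3.22 ± 1.71 under TJ (SD, n = 3). The mean of ND replicates 2 and 3 alone was 0.13. The groups did not overlap, with single TJ values of 4.58, 1.30 and 3.79. The exact permutation test again gave its smallest p of 0.1 for both comparisons, and because Il1b was close to 0 throughout, these values follow Il1rn.

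Il18, the other cytokine whose precursor caspase-1 cleaves, was at a similar level in every group. It was 2.03, 2.94 and 2.63 FPKM in the ND group, 3.86, 3.29 and 2.22 FPKM in the HFD group, 2.79, 3.23 and 2.74 FPKM in the GT group and 2.34, 3.66 and 2.24 FPKM in the TJ group. All groups overlapped. The log2 difference was 0.21 for HFD against ND (95% interval -0.59 to 1.01), 0.10 without ND replicate 1, and -0.14 for TJ against HFD (95% interval -0.69 to 0.42), the latter between -0.30 and -0.008 with single libraries left out. Each interval reaches past a fold change of 1.5 in at least 1 direction.

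Nlrp3, the sensor of the inflammasome, was low in every group. Its level was listed at 0, 0.295 and 0.307 FPKM in the ND group and was 1.30, 1.11 and 1.40 FPKM in the HFD group. It was 0.787, 0.709 and 0.285 FPKM in the GT group and 0.485, 0.171 and 0.821 FPKM in the TJ group. The HFD libraries lay above all 9 others, while the ND group overlapped both the GT and the TJ group. In the fit without the filter the log2 difference was 0.93 for HFD against ND (limma adjusted p = 0.0835) and -0.63 for TJ against HFD (limma adjusted p = 0.0916). The former value was 0.80 without ND replicate 1.

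Casp1, the protease of the inflammasome, was well measured. It was 1.52, 6.58 and 4.47 FPKM in the ND group and 21.2, 19.7 and 24.7 FPKM in the HFD group. The GT group was at 18.0, 13.3 and 10.1 FPKM and the TJ group at 8.77, 6.91 and 12.1 FPKM. All HFD libraries were above the GT and TJ libraries, and all TJ libraries were above the ND libraries. Casp1 was significantly downregulated under TJ relative to HFD, by -1.18 on the log2 scale (SE 0.20, 95% interval -1.66 to -0.70, limma adjusted p = 0.0247). It was called in 12 of 18 alternative fits, with adjusted p from 0.0108 to 0.155. Between HFD and ND it differed by 2.27 (SE 0.46, limma adjusted p = 0.0911), and by 1.82 without ND replicate 1 (limma adjusted p = 0.00738).

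Il6 was listed at 0 to 0.148 FPKM over the 12 libraries, at most about 5.41 fragments, and its groups all overlapped. Il10, which restrains macrophages, was listed at 0, 0 and 0.0573 FPKM in the ND group, at 0.877, 0.895 and 0.965 FPKM in the HFD group, at 1.05, 0.509 and 0 FPKM in the GT group and at 0.308, 0.162 and 0.406 FPKM in the TJ group. The HFD libraries lay above the ND and TJ libraries, and the GT group held both the highest and, at 0 like ND replicates 1 and 2, the lowest of the 12 values. Without the filter, Il10 differed by 0.91 on the log2 scale in HFD against ND (limma adjusted p = 0.0302) and by -0.57 in TJ against HFD (limma adjusted p = 0.0514). When ND replicate 1 was left out, the former value was 0.89. An exact 0 in such a table may also be a failed estimate.

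Tgfb1, which acts on the matrix and on immune cells, was detected in every library. It was 7.57, 8.92 and 10.6 FPKM in the ND group, 57.2, 45.4 and 58.9 FPKM in the HFD group, 43.5, 31.5 and 21.4 FPKM in the GT group and 40.3, 23.4 and 40.8 FPKM in the TJ group. All libraries on the high-fat diet were above the ND libraries, and the HFD libraries were above the GT and TJ libraries, which overlapped. Tgfb1 was significantly higher in the HFD group than in the ND group, by 2.45 on the log2 scale (SE 0.28, 95% interval 1.78 to 3.13, limma adjusted p = 0.0241), and by 2.34 without ND replicate 1 (limma adjusted p = 0.00241). With the replicate block it was not called (limma adjusted p = 0.117). In TJ against HFD it differed by -0.65 (SE 0.24, limma adjusted p = 0.0889) and was not called, and without TJ replicate 2 the value was -0.39.

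**Figure D1:**
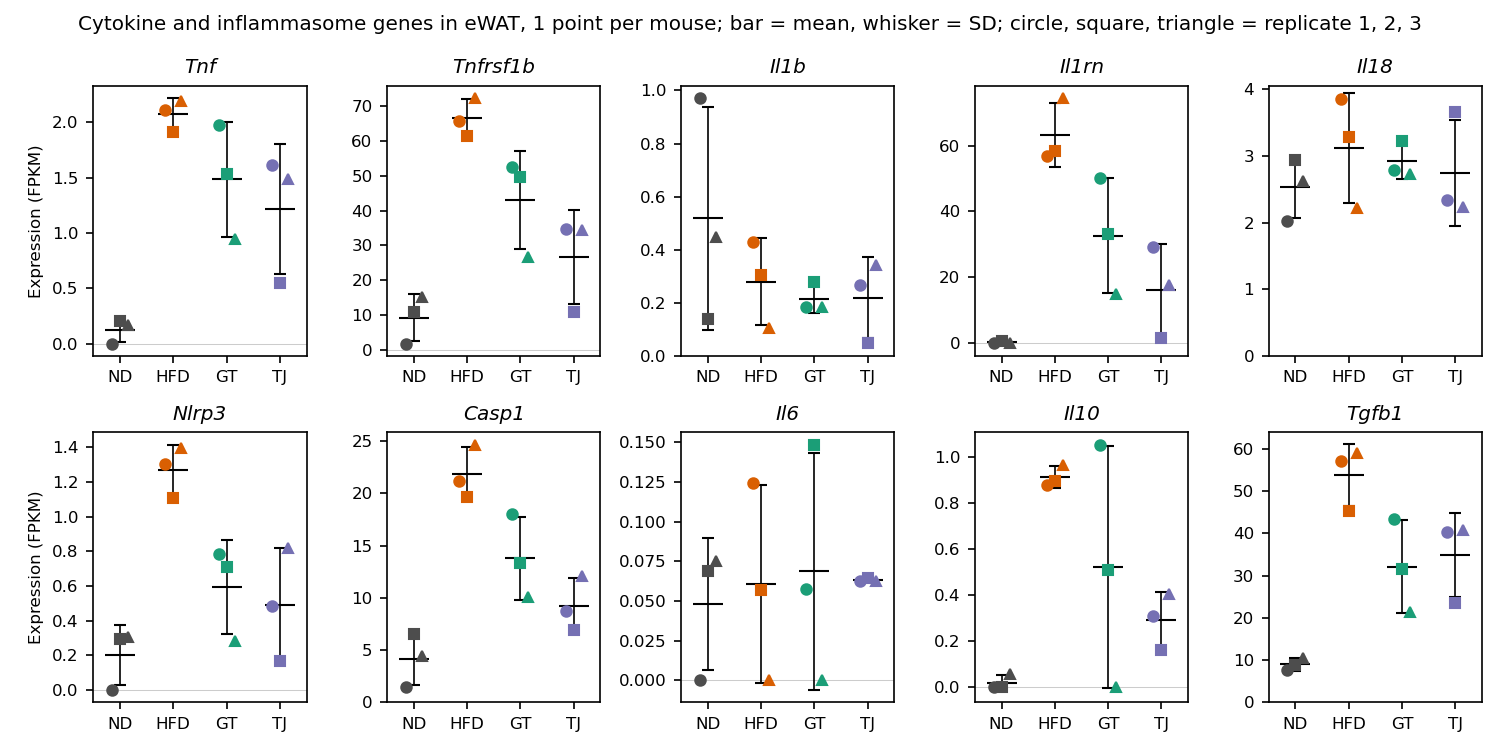
Expression in FPKM (vertical axis, a scale for each gene) of the 10 genes in the 4 groups, with 1 point per mouse, a bar for the mean and a whisker for the SD (n = 3). The group means were lowest in the ND group and highest in the HFD group for all genes but Il1b and Il6, and the groups of Il1b, Il18 and Il6 all overlapped.

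The comparison of HFD with ND asked how the high-fat diet alone went with these genes. Of the 6 members tested, 2 were called higher, Il1rn and Tgfb1, and none was called lower, where 1.77% of all 14430 tested genes were called, 1.73% higher and 0.0416% lower. Without ND replicate 1, 5 members were called higher, all tested members other than Il18, where 13.8% of all genes were called and 10.1% were called higher. The HFD and ND groups did not overlap for 7 of the 10 members, 5 of them tested, all higher in HFD, against 20.5% of the tested genes. The count was also 7 with ND replicate 1 left out, against 26.6% of the tested genes. The median log2 difference was 2.36 over the tested members and 0.07 over all tested genes, and 2.05 and -0.05 without that library. Leaving out any HFD replicate left 0 members and 0 of all 14430 genes called, and Tgfb1 was not called without ND replicate 2 or 3. The members were chosen with such results known, and these counts describe them.

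Deviations from the group means correlated at 0.55, 0.34 and 0.12 between same-numbered HFD and ND libraries. HFD replicate 3 with ND replicate 2 reached 0.63, so the numbers need not mark pairs. With the replicate number as a block 0 members were called in HFD against ND, and 5 of the 6 members had an unadjusted p under 0.05, as did 15.5% of all tested genes. Under that block 0 of all 14430 genes were called, so the count of members called could only be 0. The summed level of 10 macrophage markers was 59.9 to 578 FPKM in the ND libraries and 2921 to 4089 FPKM in the HFD libraries, and the fitted log2 difference was above 0 for all 10 markers, 3 of them called. Cd163, a scavenger receptor of resident macrophages, was at 1.19, 17.6 and 18.6 FPKM in the ND group and at 11.9, 15.9 and 9.30 FPKM in the HFD group, so that ND replicates 2 and 3 lay above every HFD library. With ND replicate 1 left out, 9 of the 10 markers were called higher and Cd163 was at -0.55 (SE 0.24, limma adjusted p = 0.210). None of the defining markers was at 0 throughout a group. The part of the macrophage list in these differences was not tested.

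The comparison of TJ with HFD asked how TJ added to the high-fat diet went with the same genes. Of the 6 members tested, 2 were called lower, Casp1 and Tnfrsf1b, and none was called higher, where 18.5% of all 12807 tested genes were called, 11.1% lower and 7.41% higher. The groups did not overlap for 7 of the 10 members, 5 of them tested and all lower in TJ, against 31.4% of the tested genes. The median log2 difference was -0.91 over the tested members and -0.14 over all tested genes. Leaving out TJ replicate 1 or any HFD replicate left 0 members called, without TJ replicate 2 there were 3, Il1rn being the third, and without TJ replicate 3 there were 2. In each of the fits with 0 members called, 0 of all 12807 genes were called, against 2036 without TJ replicate 2 and 3419 without TJ replicate 3.

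All 10 macrophage markers were lower under TJ than under HFD, 8 of them called, with a median log2 difference of -1.45. Their sum was 728 to 2138 FPKM in the TJ libraries. Among them, Adgre1 was 222 ± 33.0 FPKM under HFD and 48.5 ± 31.7 FPKM under TJ, Cd68 was 487 ± 77.2 and 129 ± 71.4 FPKM, and Itgax was 102 ± 24.5 and 23.2 ± 15.9 FPKM (SD, n = 3). The 8 adipocyte markers were summed at 19260 to 20796 FPKM in the HFD libraries and 30908 to 60117 FPKM in the TJ libraries, with 5 of them called higher. Fabp4, the fatty acid binding protein of adipocytes, made up most of these sums, at 13385 ± 1246 FPKM under HFD and 32918 ± 13755 FPKM under TJ. The fitted difference was below 0 for 2 of the 8, neither called: Lep, which encodes the hormone leptin, was 1094 ± 169 and 612 ± 282 FPKM, and the lipase gene Lpl was 2479 ± 435 and 1872 ± 651 FPKM (SD, n = 3). TJ replicate 2 had the highest adipocyte sum and the lowest macrophage sum of its group, and the lowest Tnf, Tnfrsf1b, Il1rn, Casp1, Nlrp3, Il10 and Tgfb1. The part of either marker list in the members' differences was not tested.

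The comparison of GT with HFD addressed the green tea extract in the same way and used the same HFD libraries. None of the 6 tested members was called by limma, where 3.63% of all 12766 genes were called and 1.81% were called lower. Of the 6, 4 had an unadjusted p under 0.05, as did 29.3% of all tested genes. Il1rn differed by -1.07 on the log2 scale (SE 0.39, limma adjusted p = 0.132), Tgfb1 by -0.77 (SE 0.25, adjusted p = 0.104), Tnfrsf1b by -0.67 (SE 0.25, adjusted p = 0.134) and Casp1 by -0.66 (SE 0.20, adjusted p = 0.0948). The groups did not overlap for 5 of the 10 members, 4 of them tested and all lower in GT, against 24.4% of the tested genes. Without GT replicate 1, 3 members were called lower, Il1rn, Tgfb1 and Casp1, where 1142 of the 12766 genes were called, 756 of them lower. Without GT replicate 3 none was called, and the log2 difference was -0.61 for Il1rn, -0.37 for Tnfrsf1b and -0.16 for Tnf, which was at -0.33 with all 6 libraries. Of the macrophage markers 9 of 10 were lower and 0 were called by limma, 8 of them at an unadjusted p under 0.05, with sums of 1221 to 2675 FPKM in the GT libraries.

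TJ and GT were also compared directly, because a call against HFD under TJ and none under GT does not show that the additives differ. None of the 6 tested members was called by limma, and 0 had an unadjusted p under 0.05, where 0.148% of all 12187 genes were called and 24.6% had an unadjusted p under 0.05. No member had groups that did not overlap, against 34.4% of the tested genes. The log2 difference of TJ minus GT was -1.42 for Il1rn (95% interval -3.42 to 0.58), -0.77 for Tnfrsf1b (95% interval -1.81 to 0.27) and -0.52 for Casp1 (95% interval -1.11 to 0.06). For Tgfb1 it was 0.13 (95% interval -0.57 to 0.82). Single libraries decided much of this. With TJ replicate 2 left out the differences were -0.35 for Il1rn, -0.25 for Tnfrsf1b, -0.35 for Casp1 and 0.38 for Tgfb1. Without GT replicate 1 Casp1 was at -0.33 and Tgfb1 at 0.37. Without GT replicate 3 Il1rn was at -1.88 and Tgfb1 at -0.13. Each of the intervals given reaches past a fold change of 1.5 in 1 direction.

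**Figure D2:**
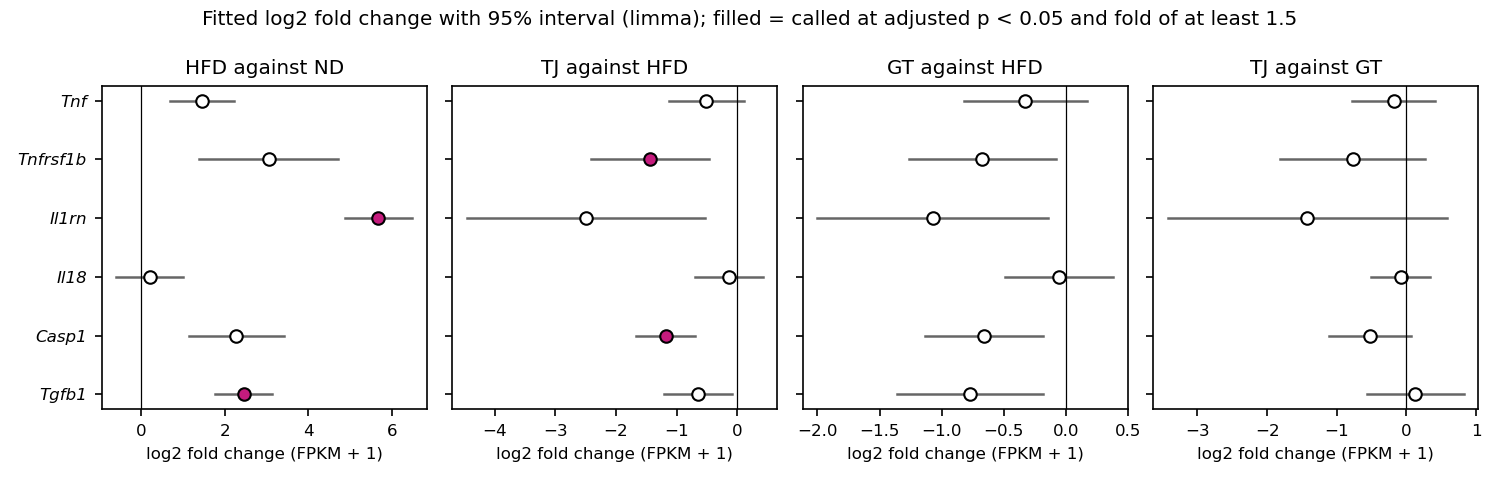
Fitted log2 fold change of FPKM + 1 (horizontal axis, a scale for each comparison) with its 95% interval for the 6 tested members, in HFD against ND, TJ against HFD, GT against HFD and TJ against GT. Filled points were called, which holds for Il1rn and Tgfb1 in HFD against ND and for Tnfrsf1b and Casp1 in TJ against HFD, and the intervals of Il18 include 0 in every panel.

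The levels of the members were set against the mean log2(FPKM + 1) of the 10 macrophage markers in each library. Over the 12 libraries Pearson's r was 0.994 for Tnfrsf1b, 0.980 for Casp1, 0.945 for Tnf, 0.933 for Il1rn, 0.908 for Tgfb1 and 0.334 for Il18. Over the 11 libraries without ND replicate 1 it was 0.988, 0.962, 0.963, 0.976, 0.899 and -0.02 in the same order. Both quantities come from the same library and follow the 4 groups, so these values are descriptions. Among the members other than Il18 the pairwise r lay between 0.896 for Tgfb1 with Tnfrsf1b and 0.987 for Tnf with Il1rn.

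**Figure D3:**
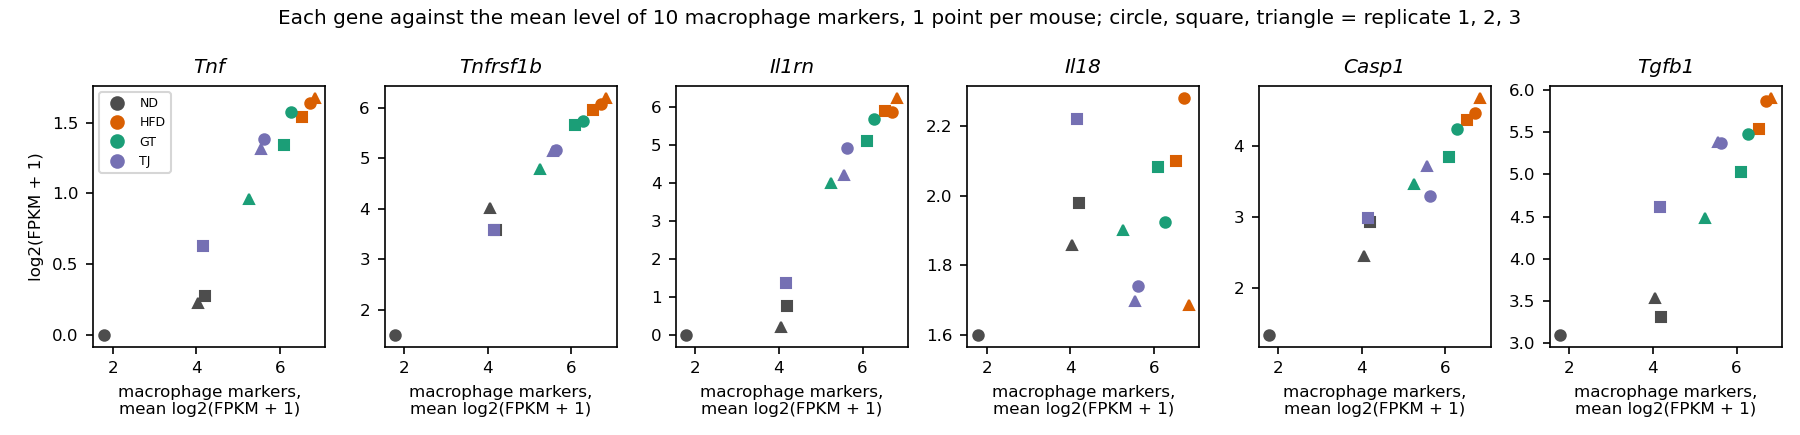
log2(FPKM + 1) of the 6 tested members (vertical axes) against the mean log2(FPKM + 1) of 10 macrophage markers (horizontal axis), 1 point per mouse, coloured by group. Tnfrsf1b lies close to a line from ND replicate 1 to the HFD libraries, Tgfb1 in TJ replicate 2 lies above ND replicates 2 and 3 at nearly the same marker level, and Il18 follows no such line.

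As a further description, the macrophage mean was subtracted from each member's log2 level in each library. After this subtraction the TJ and HFD groups overlapped for Tnfrsf1b, Casp1 and Il1rn, with TJ minus HFD at 0.13, 0.40 and -0.91. Tnf, Il18 and Tgfb1 then lay higher in every TJ library than in every HFD library, by 1.07, 1.44 and 0.93. The untested Il1b, Il6, Il10 and Nlrp3 did so too, by 1.51, 1.58, 1.01 and 0.95. The macrophage mean was lower in every TJ library than in every HFD library, so an unchanged gene comes out higher. It was higher in every HFD library than in every ND library, where an unchanged gene comes out lower. In HFD against ND, Il1rn lay higher in every HFD library, by 2.32, and Casp1 and Il18 lay lower in every HFD library, at -1.07 and -3.14. Tnfrsf1b overlapped at -0.30 and Tgfb1 at -0.89. Leaving out ND replicate 1, these values were 2.94 for Il1rn, -0.74 for Casp1, -2.46 for Il18, -0.28 for Tnfrsf1b and -0.22 for Tgfb1, with the same overlaps. For Tnf, which was under 0.3 FPKM in the ND group, the pseudocount set the direction in HFD against ND: without ND replicate 1 the HFD libraries lay lower, at -1.20, with a pseudocount of 1 and higher, at 0.76, with none. The other 5 tested members kept their direction there without a pseudocount. In TJ against HFD the values without a pseudocount were 0.72 for Tnf, which again lay higher in every TJ library, and 0.15 for Tnfrsf1b, whose groups then no longer overlapped. This subtraction was chosen after the data had been seen, and it does not separate cell number from RNA per cell.

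For each tested member the genes with the highest Pearson correlation of log2(FPKM + 1) over the 12 libraries were listed, out of 13935 genes whose mean reached 1 FPKM. For Tnfrsf1b they were Sirpa, Adgre1 and Csf1r at 0.995 for each. For Il1rn they were Rgs1, Gpnmb and Slc15a3 at 0.998, 0.995 and 0.994, and for Tnf Dpep2, Slamf8 and Lgmn at 0.997, 0.996 and 0.995. Casp1 was closest to Tlr2 at 0.994, then to Gskip and Dera, and Tgfb1 to Tyrobp at 0.987, then to Csk and Ppp1r18. The closest gene to Il18 was Zfp82 at 0.856. Without ND replicate 1 the closest genes were Sema4d for Tnfrsf1b, Atp6v0d2 for Il1rn, Arhgap25 for Tnf, Tlr2 for Casp1, Csf2rb for Tgfb1 and Glod4 for Il18. These are descriptions over libraries that share their groups.

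Another 87 genes of the same pathways were examined in 5 lists that hold none of the 10 members. In TJ against HFD, 71 of the 87 were tested, 17 were called lower and 1 was called higher, with a median log2 difference of -0.45 against -0.14 over all tested genes. These counts and those of the lists below are to be read against the 11.1% of all tested genes called lower and the 7.41% called higher. The inflammasome list had the most calls, with 7 of its 16 tested genes called lower and 0 called higher. Its lowest gene was Naip2, a sensor of bacterial proteins, at -1.86 (SE 0.30, limma adjusted p = 0.0236), and its highest was Txnip at 0.45 (adjusted p = 0.101). The adaptor Pycard was called lower, at -1.04 (SE 0.21, limma adjusted p = 0.0276), with 17.3 ± 2.32 FPKM under HFD and 8.05 ± 2.27 FPKM under TJ (SD, n = 3). Gsdmd, the substrate that opens pores in the membrane, was 17.6 ± 3.14 FPKM and 16.1 ± 0.987 FPKM in these groups, a difference of -0.11 (SE 0.15, limma adjusted p = 0.602).

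In the IL-1 and IL-18 list, 2 of 11 tested genes were called lower in TJ against HFD, the co-receptor Il1rap at -1.002 (limma adjusted p = 0.0361) and the kinase Irak4 at -0.73 (adjusted p = 0.0419). The signalling receptor Il1r1 was at -0.82 (limma adjusted p = 0.0973) and Il18bp, the secreted protein that binds Il18, at 0.53 (adjusted p = 0.0713). In the TNF list, 3 of 19 tested genes were called lower: Adam17, the protease that releases TNF from the cell surface, at -1.47 (limma adjusted p = 0.0361), the kinase Ripk1 at -0.81 (adjusted p = 0.0306) and Tnip1 at -0.71 (adjusted p = 0.0274). Ltb, a lymphotoxin, was the highest of that list at 0.79 (limma adjusted p = 0.123). The median of the list was -0.085, above that of all tested genes. The members called lower in the TNF list include Tnip1, which is known as a brake on NF-kB signalling.

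In the IL-6 and IL-10 list, 2 of 9 tested genes were called lower in TJ against HFD, the receptor Il6ra at -1.20 (limma adjusted p = 0.0302) and the kinase Jak1 at -0.82 (adjusted p = 0.0393), while Jak2 was at -0.16 (adjusted p = 0.574). In the TGF-beta list, 3 of 16 tested genes were called lower and 1 was called higher. The lower ones were the receptors Tgfbr1 at -1.84 and Tgfbr2 at -1.06 (limma adjusted p = 0.0263 for each) and Itgav, an integrin subunit that takes part in releasing active TGF-beta, at -1.23 (adjusted p = 0.0196). The higher one was Ltbp4, a matrix protein that binds latent TGF-beta, at 0.98 (limma adjusted p = 0.0432).

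In HFD against ND, 2 of the 72 pathway genes tested were called higher and 0 lower. Over all tested genes 1.73% were called higher and 0.0416% lower. The median log2 difference was 1.01 over the pathway genes, against 0.07 over all tested genes. That median was 0.44 when ND replicate 1 was left out. The called genes were Naip2 at 2.43 (limma adjusted p = 0.045) and P2rx7, the ATP receptor that starts Nlrp3 activation, at 2.13 (adjusted p = 0.0484), and with the replicate block neither was called (limma adjusted p = 0.137 and 0.161). Both were called when ND replicate 1 was left out, at 2.14 and 1.85 (limma adjusted p = 0.00534 and 0.00255). Without ND replicate 1, 25 pathway genes were called higher and 3 lower, where 13.8% of all genes were called and 10.1% were called higher. Of the higher ones, 12 were in the inflammasome list. The DNA sensor Aim2 was the highest of the inflammasome list at 2.91 (limma adjusted p = 0.0954), and Nlrp6 was the lowest at -0.74, or -0.997 without ND replicate 1. Nlrp6 rested on ND replicate 3, at 5.09 FPKM, and was listed at 0 to 0.508 FPKM in the other 5 libraries compared. Pycard was at 1.81, Gsdmd at 1.49, Tnfrsf1a at 1.35, Il1r1 at 1.09 and Il18bp at 0.27, none of them called. ND replicate 1 decided several of these values: without it Tnfrsf1a was at 0.53, Il1r1 at 0.090 and Il18bp at -0.049, none called, while Pycard at 2.41, Gsdmd at 1.36 and Aim2 at 2.35 were called (limma adjusted p = 0.00308, 0.0128 and 0.0211). Among the remaining lists, the highest and lowest log2 differences were those of Irak4 at 1.496 and Irak3 at 0.20 for IL-1 and IL-18, Adam17 at 2.19 and Ltb at -0.54 for TNF, Il10ra at 2.44 and Il11 at -1.32 for IL-6 and IL-10, and Tgfbr2 at 1.80 and Smad7 at -0.05 for TGF-beta, none of them called. With ND replicate 1 left out, Irak4 at 1.29, Adam17 at 1.397, Il10ra at 1.73 and Tgfbr2 at 0.67 were called higher, and Irak3 at 0.064, Ltb at 0.078, Il11 at -0.16 and Smad7 at -0.34 were not called. In GT against HFD, where 1.81% of all tested genes were called lower, 2 of 71 were, the IL-33 receptor Il1rl1 at -0.63 (limma adjusted p = 0.0482) and Tgfbr1 at -0.93 (adjusted p = 0.0482). Tgfbr2 was at -0.52 with a limma adjusted p of 0.0379 and stayed under the fold threshold. The outermost log2 differences in GT against HFD were those of Ltbp3 at 0.49 and Naip2 at -0.96. In TJ against GT, 0 of 70 were called by limma, 17 had an unadjusted p under 0.05, a share close to the 24.6% of all tested genes, and the outermost were Ltbp4 at 0.72 and Naip2 at -0.91.

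**Figure D4:**
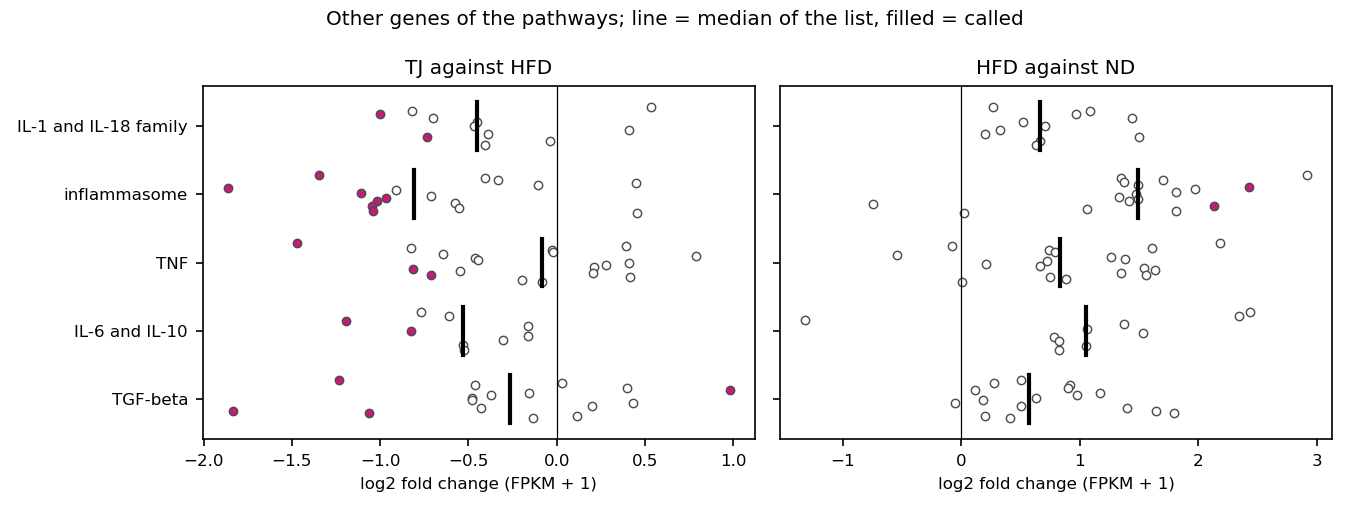
Fitted log2 fold change of FPKM + 1 (horizontal axis) of the tested genes in 5 pathway lists that hold none of the 10 members, in TJ against HFD and HFD against ND, with 1 point per gene, filled where called, and a line for the median of each list. Calls in TJ against HFD are most frequent in the inflammasome list, at 7 of 16. The list medians in TJ against HFD run from -0.81 for the inflammasome to -0.085 for TNF, with -0.14 over all tested genes, and the TGF-beta median in HFD against ND, 0.57, is -0.065 without ND replicate 1.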

How the data were processed

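RNA-seq of eWAT gave 12 libraries, 3 per group and each from a single mouse, grouped by the deposited labels. The authors filtered the reads, mapped them with STAR (2.4.0 per the labels, where the methods name another version) and computed the deposited FPKM values with Cufflinks 2.1.1, which corrected for multireads and fragment bias and masked noncoding regions. A human reference is named in the methods, whereas all 23474 identifiers are mouse. Cufflinks spreads shared reads over transcripts, so an FPKM value is an estimate and not a count.

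Symbols and coordinates came from GENCODE mouse release 21 (GRCm38), which named 22671 identifiers. Depth was estimated from the smallest step of the length-weighted FPKM values in 2315 single-transcript genes of 1500 nt or longer. Fragments of a member were estimated from its longest transcript. limma 3.58.1 in R 4.3.3 (lmFit, eBayes with trend) was fitted to log2(FPKM + 1) with the 6 libraries of each comparison, for genes whose mean reached 1 FPKM, with Benjamini-Hochberg adjustment over all of them. Fold changes are on that scale, which understates those of low genes. Calls needed an adjusted p under 0.05 and a fold of 1.5. The fit was tested on simulated data. Exact permutation tests used scipy 1.17.1, with pandas 2.3.3, numpy 2.4.6, matplotlib 3.10.9 and python 3.11.15.

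The members, the 5 pathway lists, the 12 marker lists and the tests were chosen with earlier results of these data known. All members are named. Of a pathway list, the genes with the highest and lowest log2 fold change are named, with Tnfrsf1a, Il1r1, Pycard, Gsdmd, Il18bp and Tgfbr2 and every called gene where a list had 5 or fewer. For GT against HFD and TJ against GT only some of these are named, and P2rx7 was named as a called gene. For likeness, the 3 genes with the highest correlation were taken for each tested member, and some of those for Il18 are not reported here.

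Whether replicate numbers pair the libraries was checked by the correlation over genes of deviations from the group means. It was 0.55, 0.34 and 0.12 for HFD against ND, where the numbers were taken to pair the libraries, and under 0.1 for at least 1 number in the other comparisons. No source names anything that a number shares, and 0.63 was found between differently numbered libraries, HFD replicate 3 with ND replicate 2.

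Alternatives changed the pseudocount to 0.1 or 0.01, the filter to none or 5 FPKM, the scaling to median-of-ratios or quantile normalization, and the fit to all 12 libraries, the replicate block, array weights, no mean-variance trend, removal of the trend with transcript length (loess, span 0.5), and each library left out. A fit of 11 libraries without ND replicate 1, the 11-library correlations, the subtraction of the macrophage mean with and without a pseudocount, the macrophage markers, ratios and counts of non-overlapping groups without ND replicate 1, and the pathway lists without ND replicate 1 or with the replicate block were added after the data had been seen. Read counts made by the authors were not used here.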

Additional observations from a re-analysis of the deposited data

How the results depend on the processing

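For TJ against HFD, the count of members called, 2 in the comparison as reported, was 0 without the filter and with all 12 libraries in the fit, and 1 with median-of-ratios scaling, without the mean-variance trend and with the length trend removed, and 3 with array weights and with the 11 libraries that leave out ND replicate 1. Leaving out single libraries gave 0 to 3. For HFD against ND, also 2 as reported, it was 0 with the replicate block, 1 with a pseudocount of 0.01, 3 with the length trend removed and 4 without the filter. It was 5 with all 12 libraries, with array weights and with the 11 libraries that leave out ND replicate 1. Leaving out single libraries gave 0 to 5: 0 without any HFD replicate, 1 without ND replicate 2 or 3 and 5 without ND replicate 1. For GT against HFD it was 0 as reported, 3 with array weights and 0 to 3 with single libraries left out. For TJ against GT it was 0 under every alternative run. The ratios of Il1rn to Il1b and of Tnfrsf1b to Tnfrsf1a kept their direction under every alternative run. The replicate block left 2 members called in TJ against HFD and 0 in GT against HFD and in TJ against GT. Outside HFD against ND the replicate numbers were not taken to pair the libraries.

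Signs turned for values that were not called. Il18 in TJ against HFD was 0.15 with quantile normalization. Il18 in GT against HFD was 0.048 with median-of-ratios scaling, 0.18 with quantile normalization, 0.18 with array weights, 0.16 with the length trend removed and between -0.22 and 0.076 with single libraries left out. In TJ against GT, Tnf was 0.054 with array weights, and with single libraries left out Tnf lay between -0.35 and 0.060, Il18 between -0.25 and 0.011 and Tgfb1 between -0.13 and 0.38. The cause of these changes was not tested.

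Over all tested genes the calls ranged from 0 to 3419 around 2366 in TJ against HFD, from 0 to 6057 around 255 in HFD against ND, from 1 to 1589 around 464 in GT against HFD and from 4 to 1659 around 18 in TJ against GT. In TJ against HFD the split was 949 higher and 1417 lower as reported, 1285 and 1082 with median-of-ratios scaling, 1542 and 1119 with quantile normalization and 1192 and 538 with the length trend removed, which moved the median log2 difference of all genes by 0.12, 0.17 and 0.19. In GT against HFD the split of 233 and 231 became 399 and 145, 407 and 163 and 543 and 127, with shifts of 0.12, 0.15 and 0.14. Median-of-ratios scaling moved the median of HFD against ND by -0.14, and in TJ against GT the splits were 17 and 1 as reported, 14 and 3 with median-of-ratios scaling and 23 and 5 with quantile normalization. Depth limits Il1b, Il6 and Il10, which lay under 1 FPKM in most libraries. Nlrp3 was also under 1 FPKM in most libraries. It had about 79.2 to 85.0 fragments in the HFD libraries, where the tested Tnf had about 50.8 to 57.7.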

Other observations

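Mast cell markers (Cpa3, Mcpt4, Tpsb2, Cma1 and Ms4a2) were examined beside the members. In TJ against HFD all 4 tested were called lower, with a median log2 difference of -1.95, where 11.1% of all tested genes were. In GT against HFD all 4 were called lower, with a median of -1.51, where 1.81% of all tested genes and no member were. In HFD against ND all 4 were higher, with a median of 1.68, and 0 were called. Their summed level was 24.6 to 42.7 FPKM in the HFD libraries, 7.20 to 8.66 FPKM in the GT libraries, 3.92 to 5.62 FPKM in the TJ libraries and 2.44 to 11.2 FPKM in the ND libraries. These comparisons share the HFD libraries. Fibroblast and progenitor markers were lower for 5 of 5 in TJ against HFD, 3 of them called, and for 5 of 5 in GT against HFD, 2 of them called. In HFD against ND all 5 were higher and 0 were called.

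The other marker lists gave few calls in TJ against HFD. For T cells, 1 of 2 tested markers was called higher. Of the B cell, neutrophil, dendritic cell, endothelial, mesothelial, epididymis and testis germ cell markers 0 were called by limma in any of the 4 comparisons, with 5 of 27 at an unadjusted p under 0.05 in TJ against HFD, 5 of 31 in HFD against ND, 1 of 24 in GT against HFD and 6 of 22 in TJ against GT. The shares of all tested genes at that threshold were 41.4%, 11.6%, 29.3% and 24.6% in the same order. The 5 in HFD against ND were 2 of 2 neutrophil, 1 of 3 B cell and 2 of 4 mesothelial markers. Neutrophil markers summed to 5.05 to 11.7 FPKM in the ND libraries and 57.3 to 66.2 FPKM in the HFD libraries. The B cell marker Ms4a1 was listed at 0 in all 12 libraries.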
